A study of Mus musculus with 19 samples.

Results

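The AP-1 and immediate early genes described here are 10 genes found by symbol in the gene count table: Fos, Fosb, Fosl1, Fosl2, Jun, Junb, Jund, Atf3, Egr1 and Ier3. All 10 were present among the 55536 genes of the table, and all 10 were among the 16026 genes that passed the filter on low counts. They were taken by symbol, with no threshold on a measured value, but the list was chosen with earlier results of these data known. Counts of members set beside shares of all tested genes are therefore descriptions. RNA was sequenced from mouse kidney in 19 libraries, comprising 4 healthy kidneys, 7 kidneys with unilateral ureteral obstruction (UUO) given vehicle and 8 obstructed kidneys given zalfermin, a long-acting analogue of the hormone FGF21. In UUO the ureter of 1 kidney is tied off, which leads to tubular injury, inflammation and fibrosis. The sample labels name the 15 obstructed kidneys with the condition MASH and give their treatment as vehicle or as a compound code, taken here as the zalfermin of the series design. Healthy kidneys are labelled untreated, whereas the design calls them vehicle. The sources used here do not give strain, sex, age, dose, route or days of obstruction. Nothing in the labels says that each library is a separate animal, so p-values measure the spread between these libraries, which may be in part technical.

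AP-1 is a transcription factor made of a pair of proteins joined through a leucine zipper, most often a FOS family protein (Fos, Fosb, Fosl1 or Fosl2) with a JUN family protein (Jun, Junb or Jund), and JUN proteins can also pair with themselves or with ATF family members such as Atf3. Fos, Fosb, Jun, Junb, Atf3, Egr1 and Ier3 are immediate early genes: MAP kinases, serum response factor and calcium signals switch them on within minutes without new protein synthesis, and their mRNAs are short-lived. In the kidney these genes are known to be induced in tubule cells by ischaemia, stretch and toxins, and AP-1 and Egr1 act at many genes of inflammation and matrix production.

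Immediate early genes are known for short sequence elements close to the transcription start, so the 250 bases upstream of the start are shown for Fos, Fosb and Atf3, on whose values the comparisons turn most, and for Jun. The sequences are from RefSeq (GRCm38.p6), read 5′ to 3′ on the gene's strand, and capitals mark the elements described after them. The windows are chr12:85473640-85473889 (plus strand) for Fos, chr7:19310046-19310295 (minus strand) for Fosb, chr4:95052223-95052472 (minus strand) for Jun and chr1:191183334-191183583 (minus strand) for Atf3.
Fos: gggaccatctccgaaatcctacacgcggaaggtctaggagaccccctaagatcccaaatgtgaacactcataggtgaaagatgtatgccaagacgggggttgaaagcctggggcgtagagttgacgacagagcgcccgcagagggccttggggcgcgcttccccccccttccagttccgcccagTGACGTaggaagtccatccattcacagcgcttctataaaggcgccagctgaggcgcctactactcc
Fosb: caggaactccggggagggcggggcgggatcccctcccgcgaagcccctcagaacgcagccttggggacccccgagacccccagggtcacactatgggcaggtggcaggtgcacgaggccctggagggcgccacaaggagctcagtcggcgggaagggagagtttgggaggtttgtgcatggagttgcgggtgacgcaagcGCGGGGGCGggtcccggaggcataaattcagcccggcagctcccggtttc
Jun: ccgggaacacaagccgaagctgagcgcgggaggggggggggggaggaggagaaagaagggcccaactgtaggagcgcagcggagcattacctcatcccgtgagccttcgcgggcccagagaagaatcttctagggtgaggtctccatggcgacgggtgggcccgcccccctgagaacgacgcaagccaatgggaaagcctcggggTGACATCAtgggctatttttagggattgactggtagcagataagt
Atf3: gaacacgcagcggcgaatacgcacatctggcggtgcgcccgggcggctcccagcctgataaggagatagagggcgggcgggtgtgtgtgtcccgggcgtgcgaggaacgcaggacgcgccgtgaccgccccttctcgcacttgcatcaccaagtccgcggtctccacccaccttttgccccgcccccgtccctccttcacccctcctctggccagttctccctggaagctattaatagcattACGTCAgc

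The capitals mark TGACGT, the core of a cyclic AMP response element, in Fos (66 to 61 bases before the start) and, on the other strand, in Atf3 (8 to 3 bases before it). In Jun they mark TGACATCA, a variant to which Jun and Atf2 are known to bind (45 to 38 bases before the start). In Fosb they mark a match to GCGNGGGCG, the motif of Egr1 (50 to 42 bases before it). Both strands were searched in the 8 members that had a window in the table. TGACGT, chosen after the sequences were read, was in 2 of 8 windows and in 6.47% of 32851 promoters. TGACATCA was in 1 of 8 and 2.93%, and GCGNGGGCG in 2 of 8 (Fosb and Fosl2) and 4.70%. The full response element TGACGTCA, which contains TGACGT, was in 0 of 8 and in 1.55% of promoters. The consensus AP-1 site TGACTCA was in 0 of 8 and in 4.46% of promoters. TATAAA was in 1 of 8, 33 to 28 bases before the Fos start, and in 12.4% of promoters, while CCAAT was in 3 of 8 (Jun, Junb and Ier3) and in 33.8%. The CArG box, the motif of serum response factor, was in 0 of 8 and in 1.47% of promoters. Fosl1 and Egr1 had no window, and bases farther than 250 before a start were not searched. The counts of 0 therefore do not show that a motif is absent from these genes. For Jund the RefSeq start lies 1210 bases upstream of the GENCODE start, so its window may miss the promoter in use. The GENCODE gene of Fosl2 starts 671 bases upstream of the RefSeq start, so the window searched for Fosl2 lies within that gene. A match is a description of letters and not evidence that a factor binds. For Atf3 a GENCODE transcript starts a few bases upstream of the RefSeq start, so the marked letters lie at the boundary of that transcript. Another GENCODE transcript of Atf3 starts 34706 bases upstream of the RefSeq start, and the bases before that start were not searched.

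All 10 members were higher in obstructed kidneys given vehicle than in healthy kidneys (edgeR's quasi-likelihood test, Benjamini-Hochberg adjustment over all tested genes, adjusted p under 0.05), while 36.2% of all tested genes were called higher in this comparison. In 9 of the 10 the 2 groups of libraries did not overlap, against 24.7% of all tested genes, with Fos as the exception. A called rise of at least 4-fold was seen for 7 of 10 members and for 10.2% of tested genes. The median log2 fold change was 2.36 over the members and 0.09 over all tested genes. In these bulk samples a change in the number of cells that express a gene and a change in RNA per cell cannot be told apart. Markers of several cell types moved in the same comparison. All 5 fibroblast and pericyte markers, all 5 macrophage markers and all 5 injured-tubule markers were called higher, and all 5 proximal tubule markers lower. Summed over the list, fibroblast and pericyte markers were at 127 to 208 CPM in healthy and 1877 to 3502 CPM in vehicle libraries, and macrophage markers at 129 to 154 and 749 to 958 CPM. Injured-tubule markers summed to 19.3 to 35.4 and 1641 to 2663 CPM, and proximal tubule markers to 10238 to 12171 and 1816 to 3787 CPM. None of these markers was at 0, and their part in the members' rise was not tested. Levels are CPM, the read count relative to the total of a library after scaling by TMM factors.

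**Figure D1:**
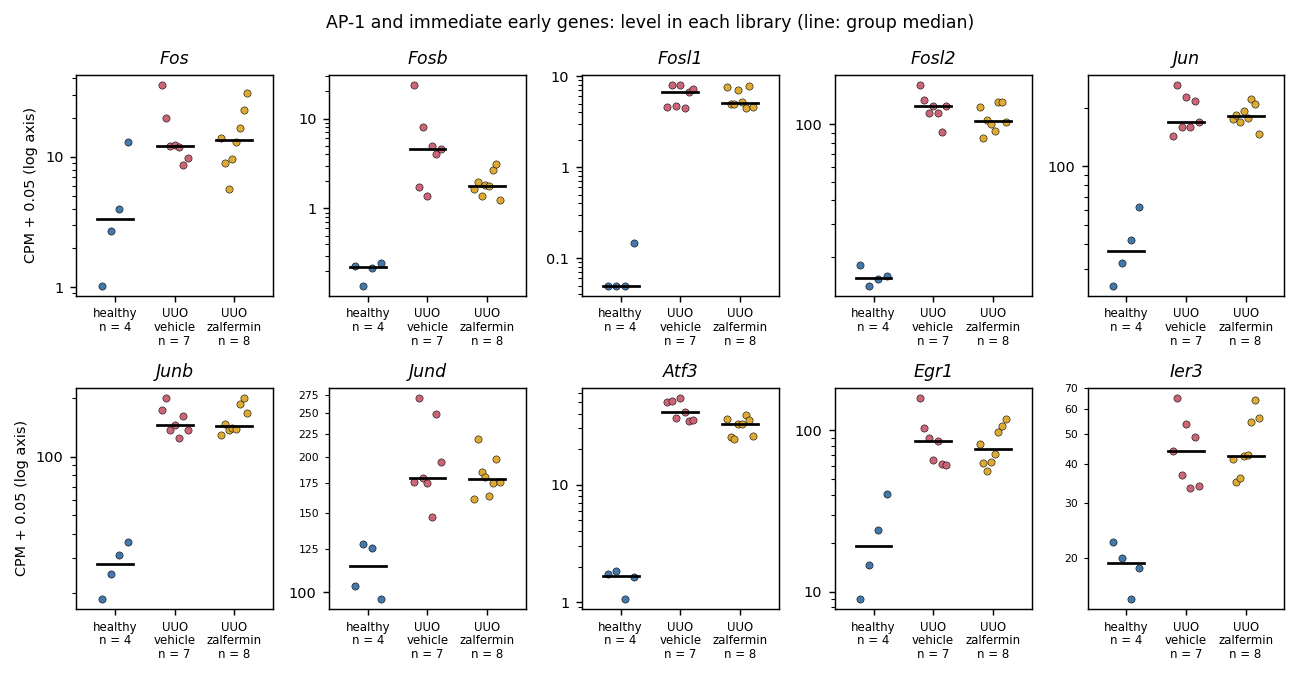
Level of each member in each library, as CPM plus 0.05 on a log axis, for 4 healthy, 7 UUO vehicle and 8 UUO zalfermin libraries, with a line at the group median. Healthy and obstructed libraries are apart for every member but Fos, whose highest healthy library (12.97 CPM) lies above the vehicle median of 11.97 CPM.

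Among the FOS family, Fos (ENSMUSG00000021250, chr12:85473890-85477273 of GRCm38) encodes the founding and most rapidly induced partner of Jun. It stood at 0.979, 2.66, 3.96 and 12.97 CPM in the 4 healthy libraries, and at a lowest of 8.64, a median of 11.97 and a highest of 35.8 CPM in the 7 vehicle libraries. Healthy replicate 4 therefore lay inside the vehicle range, while the other 3 healthy libraries lay below it. The fitted log2 fold change was 1.63 (SE 0.537, 95% interval 0.522 to 2.75, adjusted p = 0.0107), or 3.10-fold. It was 2.62 (6.16-fold, adjusted p = 0.000460) without healthy replicate 4, and 1.29 without vehicle replicate 1 (adjusted p = 0.0280) or without healthy replicate 1 (adjusted p = 0.0430).

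Fosb (ENSMUSG00000003545, chr7:19302696-19310051), which has a truncated splice form known for its long life in neurons, was nearly silent in healthy kidney, with 0.178, 0.0888, 0.169 and 0.196 CPM from 1 or 2 reads in each library. In vehicle kidneys it ran from 1.33 through a median of 4.50 to 23.8 CPM. Every vehicle library was above every healthy one, but they differed 17.9-fold among themselves. The log2 fold change was 5.37 (SE 0.868, adjusted p = 1.12e-05, 41.3-fold), and without vehicle replicate 1 it was 4.61 (24.5-fold, adjusted p = 6.29e-07).

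Fosl1 (ENSMUSG00000024912, chr19:5447547-5455946) encodes FRA1, a FOS protein without the C-terminal activation domain of Fos. It had 0, 0, 0 and 1 read in the healthy libraries and between 64 and 121 reads in each vehicle library, or 4.37 to 8.02 CPM with a median of 6.69. The groups were far apart (adjusted p = 2.82e-11), but with a single healthy read the size of the rise is poorly known. Scaled for depth, the vehicle total of 653 reads was 369.9 times the healthy total, with a 95% counting interval of 66.2 to 14632. Zalfermin kidneys also held 653 reads, 64 to 108 per library, a ratio to healthy of 334.6 (59.8 to 13237). These intervals cover counting error only. Ccdc85b, a gene on the opposite strand, spans 1163 of the 2033 exon bases of Fosl1. Ccdc85b as a whole had 18.8 ± 4.14 CPM (SD, n = 4) in healthy and 26.5 ± 6.74 CPM (n = 7) in vehicle libraries. Reads in the shared bases alone were not counted. The sources used here do not say how the authors' counting treated strand. The library kit keeps strand, but unless the counting used it, reads of genes that overlap on opposite strands cannot be told apart.

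Fosl2 (ENSMUSG00000029135, chr5:32135801-32157842) encodes FRA2, the other FOS protein without that domain. Healthy libraries held 18.1, 14.1, 15.3 and 15.8 CPM, and vehicle libraries a lowest of 91.6, a median of 124 and a highest of 162 CPM. The spread within each group was small beside the gap between them (log2 fold change 2.96, SE 0.157, adjusted p = 5.02e-13, 7.81-fold).

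In the JUN family, Jun (ENSMUSG00000052684, chr4:95049034-95052222), a single-exon gene whose protein is activated by JNK, was at 24.5, 32.1, 41.8 and 62.0 CPM in healthy libraries. Vehicle libraries ran from 143 through 169 to 262 CPM. The lowest vehicle library was above the highest healthy one, and the log2 fold change was 2.25 (SE 0.209, adjusted p = 3.16e-09, 4.77-fold).

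Junb (ENSMUSG00000052837, chr8:84974484-84978718), which can oppose Jun at some promoters, went from 18.5, 24.9, 31.2 and 36.5 CPM in healthy libraries to a range of 125 to 199 CPM with a median of 146 in vehicle libraries. No healthy library came near the vehicle range (log2 fold change 2.48, SE 0.177, adjusted p = 4.93e-11, 5.56-fold). Prdx2, a peroxiredoxin gene on the opposite strand, spans 173 exon bases of Junb, and its log2 fold change was -0.10 (adjusted p = 0.460). The antisense genes over Jun (Junos) and Jund (Gm11175) held 301 and 182 reads over all libraries, beside 42917 and 46878 for the members.

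Jund (ENSMUSG00000071076, chr8:70698949-70700616), a JUN gene known for steady expression in resting cells, was the least changed of the 10. It stood at 103.2, 128, 125 and 96.6 CPM in healthy libraries and at 147 to 270 CPM, median 180, in vehicle libraries. The groups did not overlap, yet the step between the highest healthy and lowest vehicle library was small (log2 fold change 0.81, SE 0.140, adjusted p = 2.50e-05, 1.76-fold).

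Atf3 (ENSMUSG00000026628, chr1:191170296-191218039) encodes a stress-induced repressor that binds cyclic AMP response elements and pairs with JUN proteins. It was at 1.69, 1.78, 1.01 and 1.57 CPM in healthy libraries and at 34.7 to 54.5 CPM, median 41.4, in vehicle libraries. This was the member with the smallest adjusted p, with groups far apart and little spread in either (log2 fold change 4.84, SE 0.220, adjusted p = 6.31e-14, 28.7-fold).

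Egr1 (ENSMUSG00000038418, chromosome 18) encodes a zinc finger factor that is no AP-1 protein but shares with Fos its induction through serum response factor. Healthy libraries held 8.98, 14.6, 23.9 and 40.1 CPM, and vehicle libraries 60.9 to 159 CPM with a median of 86.4. Although the healthy libraries differed 4.46-fold among themselves, none reached the vehicle range (log2 fold change 2.04, SE 0.333, adjusted p = 1.28e-05, 4.10-fold).

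Ier3 (ENSMUSG00000003541, chr17:35821684-35822923), also known as IEX-1, encodes a small membrane protein that modulates ERK signalling and cell survival. It was at 22.3, 19.9, 14.7 and 18.5 CPM in healthy libraries and at 33.4 to 65.1 CPM, median 44.0, in vehicle libraries. The rise was of modest size with no overlap (log2 fold change 1.26, SE 0.197, adjusted p = 7.31e-06, 2.39-fold).

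Healthy replicate 4 was the highest healthy library for Fos, Jun, Junb and Egr1, and healthy replicate 1 was the lowest for these 4 genes. This order was not shared by all members: replicate 4 was the lowest of the healthy libraries for Jund and replicate 1 was the highest for Fosl2 and Ier3. The coefficient of variation (CV, SD over mean) of Fos in healthy libraries was 104%, above that of 99.96% of the 11460 genes with a mean of at least 50 counts there. For Egr1 it was 62.0%, above 99.76% of these genes, and for Jun 40.5%, above 98.7%. Fosl2 and Jund, with CVs of 10.6% and 13.8%, were close to the median gene at 11.6%. In vehicle libraries Fosb had a CV of 113% where counting alone would give 9.92%, and Fos had 60.7%, beside a median of 16.1% over 12726 genes. In zalfermin libraries Fos kept a CV of 54.1% and Egr1 of 27.4%, beside a median of 10.1% over 12588 genes. Fosb, whose mean there was under 50 counts and which is not among these genes, was at 33.5% where counting alone would give 19.2%.

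Per length of exon, as RPKM, the CPM divided by the exon length in kilobases, Jund had the highest level of the 10 genes in each group, at 67.9 ± 9.34 (SD, n = 4) in healthy, 119 ± 26.5 (n = 7) in vehicle and 109 ± 11.3 (n = 8) in zalfermin libraries. In healthy kidney the genes below it in RPKM were Ier3 (16.7 ± 2.83), Jun (12.6 ± 5.09), Junb (12.1 ± 3.39), Egr1 (4.89 ± 3.03), Fos (2.19 ± 2.28), Fosl2 (1.64 ± 0.174), Atf3 (0.702 ± 0.160), Fosb (0.0253 ± 0.00761) and Fosl1 (0.0121 ± 0.0242). Ranges over libraries overlapped between neighbours from Ier3 down to Fosl2 and between Fosb and Fosl1. Compared within each library, Junb was above Egr1 and Egr1 above Fos in 4 of 4. Ier3 was above Jun in 2 of 4, Jun above Junb in 1, Fos above Fosl2 in 2 and Fosb above Fosl1 in 3. The order of those pairs is loose. In vehicle kidney the RPKM order was Jund, Junb (67.1 ± 11.2), Jun (59.9 ± 13.9), Ier3 (39.8 ± 10.3), Atf3 (20.2 ± 3.84), Egr1 (19.99 ± 7.71), Fosl2 (12.8 ± 2.22), Fos (6.70 ± 4.07), Fosl1 (3.04 ± 0.798) and Fosb (1.10 ± 1.25). There the ranges separated Jund from Junb and Ier3 from Atf3 only, whereas all other neighbours overlapped. Compared within each library, Jun was above Ier3, Egr1 above Fosl2, Fosl2 above Fos and Fos above Fosl1 in 7 of 7. Junb was above Jun and Fosl1 above Fosb in 6 of 7, and Atf3 above Egr1 in 4 of 7. Zalfermin kidneys had the same RPKM order except that Egr1 (18.3 ± 5.02) stood above Atf3 (14.5 ± 2.59), in 7 of 8 libraries. Fosb was last at 0.304 ± 0.102, below the range of Fosl1 at 2.83 ± 0.688.

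The shares of Jund and Junb in the JUN family and of Fosl1 in the FOS family did not overlap between healthy and obstructed libraries. Those of Jun, Fos, Fosl2 and Fosb did, and the healthy share of Fosl1 rests on 1 read. Summed over the FOS family, healthy libraries had 3.86 ± 2.28 RPKM, vehicle libraries 23.6 ± 6.93 and zalfermin libraries 20.8 ± 4.69. Fosl2 had mean shares of 51.9%, 55.4% and 55.1%. It was above Fos in only 2 of 4 healthy libraries, and by mean RPKM Fos (2.19) stood above Fosl2 (1.64) there. The share of Fos was 17.9% to 76.3% in healthy libraries and 19.4% to 40.1% in vehicle libraries, with means of 47.2% and 26.7%. Fosl1 made up 0.167% of the family in healthy, 13.7% in vehicle and 13.99% in zalfermin libraries on average. For Fosb the mean shares were 0.757%, 4.18% and 1.49%. In the JUN family, with sums of 92.5 ± 10.5, 246 ± 47.1 and 235 ± 22.4 RPKM, Jund held 62.1% to 79.7% in healthy libraries and 43.8% to 51.9% in vehicle libraries. Junb had a mean share of 12.95% in healthy libraries, 27.5% with vehicle and 28.8% with zalfermin, and that of Jun was 13.5%, 24.3% and 24.6%. Shares have no test here because they are ratios of the levels compared above. With the length of the longest transcript in place of all exons, the mean vehicle shares were 61.3% for Fosl2, 32.5% for Junb and 44.9% for Jund.

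**Figure D2:**
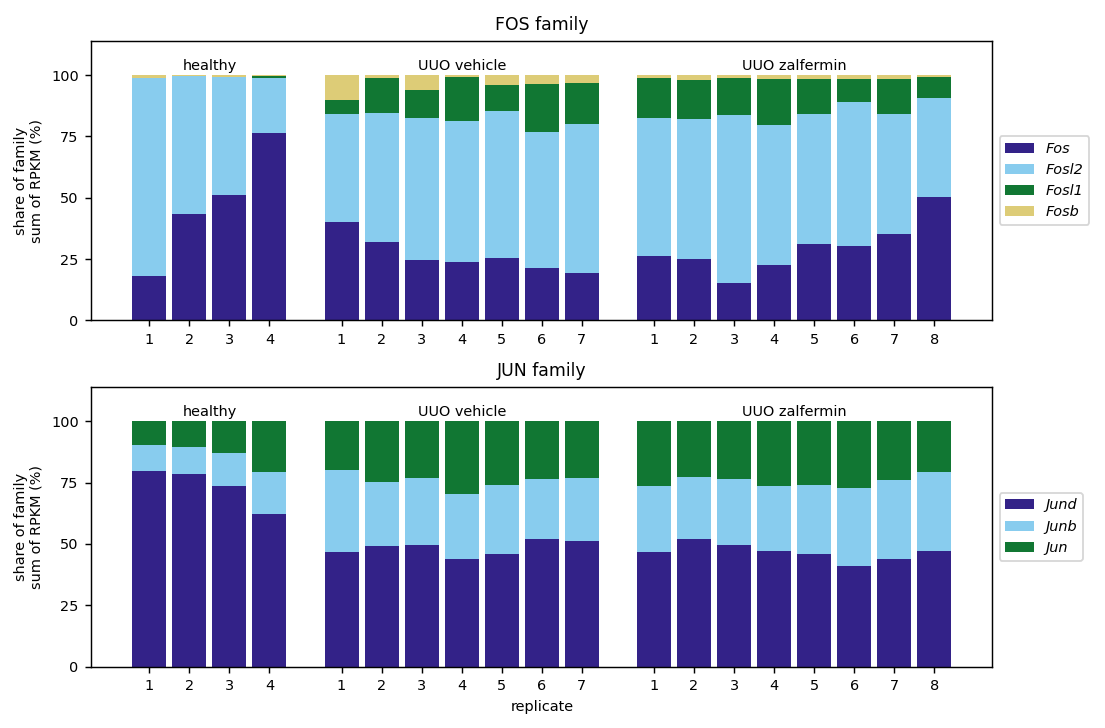
Share of each gene in the summed RPKM of the FOS family (top) and the JUN family (bottom), 1 bar per library, in percent. Fosl1 is visible in the obstructed libraries (mean 13.7% with vehicle, 13.99% with zalfermin), and Jund takes a larger part of the JUN family in healthy libraries (mean 73.6%) than in vehicle libraries (48.2%).

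Obstructed kidneys given zalfermin were also above healthy kidneys in all 10 members, where 37.3% of tested genes were called higher. This comparison shares its 4 healthy libraries with the previous one. No overlap was seen for 9 of 10 members, again all but Fos, against 29.4% of tested genes, and a called rise of at least 4-fold for 6 of 10 against 9.12%. The median log2 fold change was 2.34, and 0.13 over all tested genes. The log2 fold change was 1.58 for Fos (adjusted p = 0.0123), 3.52 for Fosb (adjusted p = 0.00226), 2.78 for Fosl2, 2.20 for Jun, 2.49 for Junb, 0.69 for Jund, 4.37 for Atf3, 1.91 for Egr1 and 1.30 for Ier3. For the 7 genes given here without a p, it was at most 0.000138 (Jund). The value for Fos was 2.57 without healthy replicate 4, and its adjusted p was closest to the threshold without healthy replicate 1 (0.0497).

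**Figure D3:**
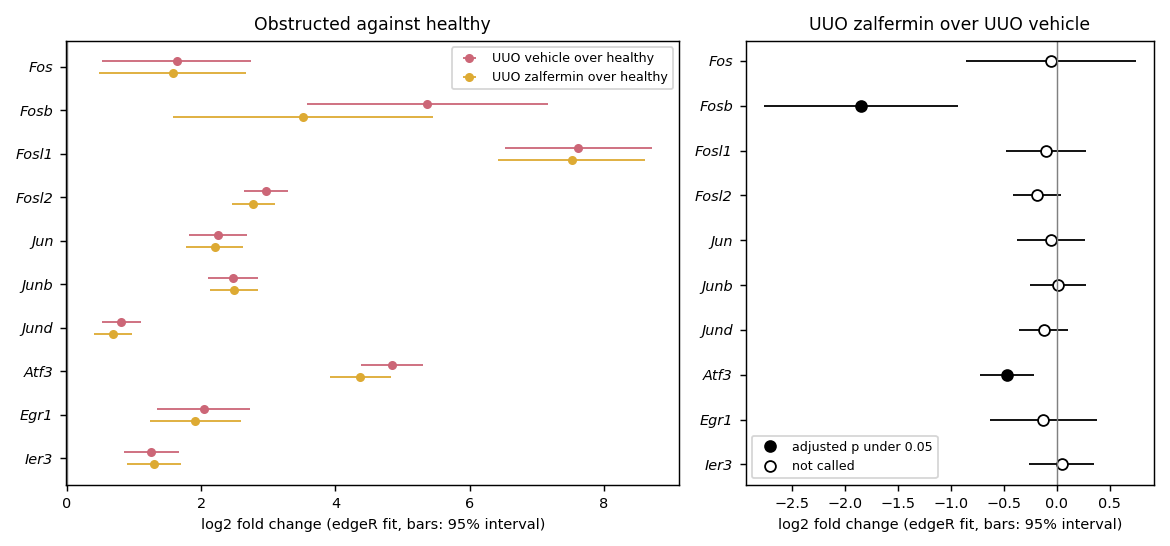
Log2 fold change of each member with its 95% interval, for both obstructed groups over healthy (left) and for zalfermin over vehicle (right, filled points at adjusted p under 0.05). All left-hand intervals lie above 0, and on the right Fosb (-1.85) and Atf3 (-0.47) are the filled points. The Fosl1 points on the left rest on 1 healthy read and depend on the prior count of the fit.

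Zalfermin was then compared with vehicle within obstruction. Of the 10 members 2 were called lower (0.942% of tested genes were) and 0 were called higher (0.867% of tested genes were). The members called lower were Fosb and Atf3. By edgeR 0 members were higher at an unadjusted p under 0.05 (7.94% of tested genes were), and DESeq2 and limma voom also called 0 higher. The log2 fold change was below 0 for 8 of 10 members and for 48.0% of tested genes, although upper-quartile factors put Junb below 0 and limma voom put Fosl1, Jun and Jund above 0. For all members but Fosb and Atf3 the 95% interval included 0. Among cell type markers, 2 of 5 fibroblast and pericyte markers were called lower with zalfermin, and their summed level of 1108 to 1811 CPM lay below the vehicle range of 1877 to 3502 CPM. Summed macrophage markers, at 594 to 881 against 749 to 958 CPM, and injured-tubule markers, at 2183 to 3223 against 1641 to 2663 CPM, overlapped. Called higher were 1 of 5 injured-tubule, 1 of 5 proximal tubule and 1 of 5 podocyte markers. No marker of these 5 lists was at 0, and the part of these cell types in the member values was not tested.

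Fosb stood at 1.60, 1.92, 1.32, 1.79, 1.71, 2.602, 3.07 and 1.19 CPM in the 8 zalfermin libraries and at 23.8, 1.70, 8.02, 1.33, 4.85, 3.95 and 4.50 CPM in the 7 vehicle libraries. All 8 zalfermin libraries lay below the vehicle median of 4.50 CPM, and 2 of 8 lay below the lowest vehicle library, so the groups overlapped. The spread was wide with vehicle and narrow with zalfermin. The mean was 1.90 ± 0.636 CPM (SD, n = 8) against 6.87 ± 7.77 CPM (n = 7), and the log2 fold change was -1.85 (SE 0.442, 95% interval -2.76 to -0.93, adjusted p = 0.0311). Without vehicle replicate 1 it was -1.09 (adjusted p = 0.0830). The call was also lost without vehicle replicate 3 or without zalfermin replicate 1, 2, 3, 4, 5 or 8, with adjusted p from 0.0543 to 0.0657 and values of -1.85 to -1.77, about as large as with all libraries.

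Atf3 stood at 36.2, 25.1, 24.4, 32.8, 32.5, 38.8, 35.2 and 25.6 CPM with zalfermin and at 50.1, 51.0, 36.9, 54.5, 41.4, 34.7 and 35.5 CPM with vehicle. All 8 zalfermin libraries were below the vehicle median of 41.4 CPM, and 5 of 8 were below the lowest vehicle library. The mean was 31.3 ± 5.57 CPM (n = 8) against 43.4 ± 8.27 CPM (n = 7), with a log2 fold change of -0.47 (SE 0.122, 95% interval -0.73 to -0.22, adjusted p = 0.0474). This call did not hold without vehicle replicate 1, 2, 4 or 5, nor without zalfermin replicate 2, 3, 4, 5, 7 or 8, with values of -0.50 to -0.41 and adjusted p from 0.0541 to 0.109. A fit of these 2 groups alone called neither gene (log2 fold change -1.87 and adjusted p = 0.0550 for Fosb, -0.48 and 0.0544 for Atf3). In both groups Atf3 remained far above the healthy libraries, whose highest value was 1.78 CPM.

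**Figure D4:**
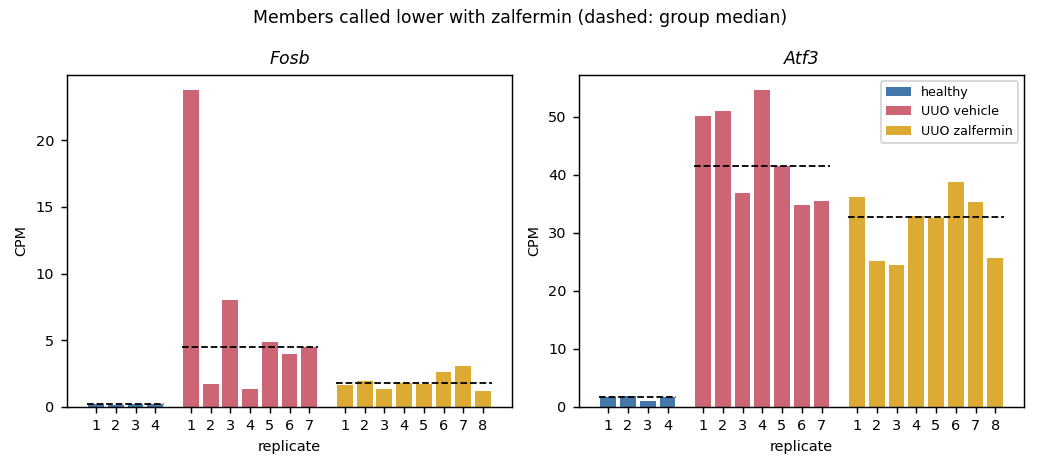
CPM of Fosb (left) and Atf3 (right) in each library, with the group median dashed. The highest Fosb bar is vehicle replicate 1 at 23.8 CPM, and every zalfermin bar of both genes is below the vehicle median (4.50 and 41.4 CPM).

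The other 8 members did not pass the test for a difference between zalfermin and vehicle, with adjusted p from 0.427 to 0.968. Fosl2 was at 84.3 to 131 CPM, median 104, with zalfermin and at 91.6 to 162 CPM, median 124, with vehicle (log2 fold change -0.19, 95% interval -0.41 to 0.04). Jund ran from 161 to 219 CPM, median 178, and its log2 fold change was -0.12 (95% interval -0.36 to 0.11). For both genes the zalfermin and vehicle ranges overlapped.

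Jun with zalfermin ran from 147 to 220 CPM, median 180, with a log2 fold change of -0.06 (95% interval -0.37 to 0.26). Junb ran from 129 to 200 CPM, median 144, with 0.01 (-0.25 to 0.28), and Ier3 from 34.8 to 64.2 CPM, median 42.4, with 0.04 (-0.27 to 0.36). The interval for Jun spans 0.772-fold to 1.20-fold, and those for Junb and Ier3 were of similar width. Fosl1 was at 4.38 to 7.82 CPM, median 5.03, with -0.10 (-0.48 to 0.27).

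Fos and Egr1 were the least precisely measured of the uncalled members. Fos ran from 5.63 to 30.8 CPM, median 13.5, with a log2 fold change of -0.06 (95% interval -0.86 to 0.75). Egr1 ran from 55.8 to 117 CPM, median 76.5, with -0.13 (-0.63 to 0.38). For Fos the interval spans 0.552-fold to 1.68-fold, so changes within that interval are not excluded.

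Whether the members vary together between libraries was examined within each obstructed group, over 45 pairs in each and 90 in all, as Pearson's r of log2(CPM + 0.5) with two-sided exact permutation tests adjusted over the 90. In the 8 zalfermin libraries Fos and Egr1 had r = 0.97 (exact p = 2.48e-05, the smallest that 8 libraries allow, adjusted p = 0.00223) and Spearman's rho = 1 (exact p = 4.96e-05, adjusted p = 0.00446). Without the 2 libraries farthest from the Fos median r was 0.96. The ranking of the 8 libraries by Fos was thus identical to that by Egr1. In the 7 vehicle libraries the same pair had r = 0.94 (exact p = 0.00258, adjusted p = 0.0580) and rho = 0.86 (exact p = 0.0238, adjusted p = 0.268), with r = 0.67 without the 2 farthest libraries. With vehicle 0 of 45 pairs passed the adjusted test and 7 had an unadjusted exact p under 0.05, and with zalfermin 1 passed and 6 had. Pairs of other genes were not counted, so whether the members vary together more than other genes do was not tested. Without zalfermin replicate 8 the count of 1 became 0, and without vehicle replicate 7 the count of 0 became 1.

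Fosb and Jun had opposite signs in the groups, with r = -0.86 with vehicle (exact p = 0.00774, adjusted p = 0.0977, rho = -0.96) and r = 0.92 with zalfermin (exact p = 0.00149, adjusted p = 0.0580, rho = 0.95). Neither value passed the adjusted test, and the difference between them was not tested. Without the 2 libraries farthest from the Fosb median the values were -0.89 and 0.90. The median r over the member pairs was 0.36 with vehicle and 0.37 with zalfermin, and it was not computed for pairs of other genes.

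**Figure D5:**
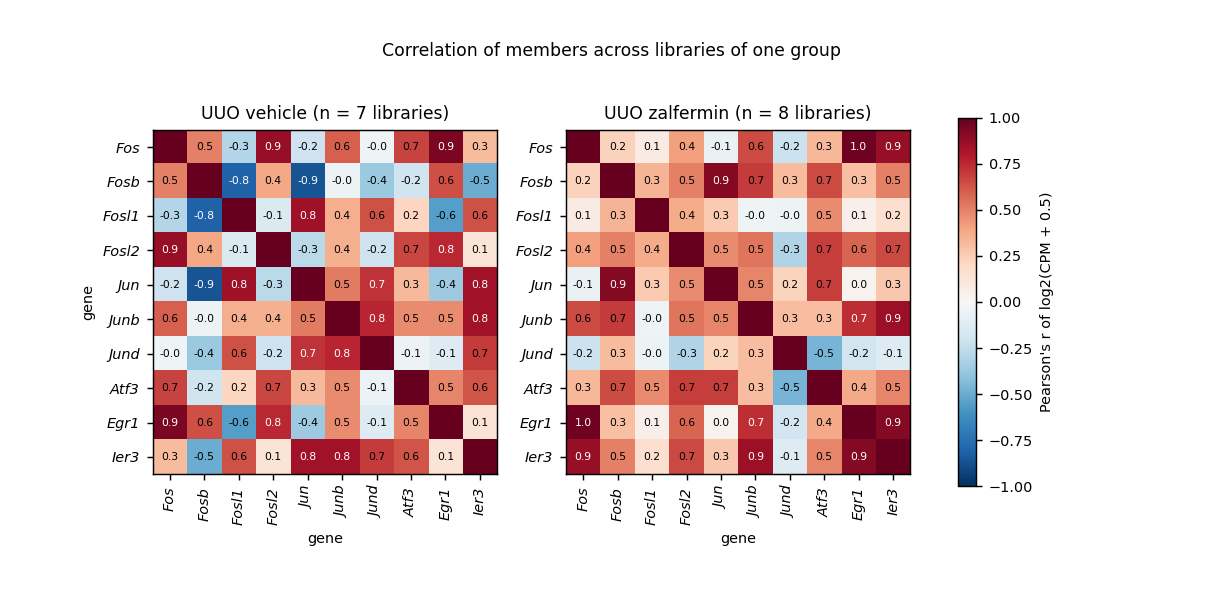
Pearson's r of log2(CPM + 0.5) between members across the 7 UUO vehicle libraries (left) and the 8 UUO zalfermin libraries (right). Fos and Egr1 are strongly correlated in both panels (0.94 and 0.97), and Fosb and Jun change sign between them (-0.86 and 0.92).

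Genes outside the 10 with the most similar pattern were looked up over the 15 obstructed libraries, after centring on each group's mean. They were sought among 11680 tested genes whose mean reached 5 CPM. Symbols that start with Gm and a digit or end in Rik, and further entries of a repeated symbol, had been left out. Closest to Fos were Egr2 (r = 0.86), a relative of Egr1, Zfp36 (0.85), which encodes an mRNA-destabilizing protein, and Hbegf (0.81), a ligand of the EGF receptor. Fosl1 was closest to Taf1c (0.85), Ptpn21 (0.83) and Ywhag (0.80). Jund was closest to Ier5l (0.92), Tmem160 (0.92) and CAAA01118383.1 (0.91). All these values share the libraries and their depth, and they are the highest of many, so they are given as a description.

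The wider pathway was read from 5 gene lists. Over all tested genes, 36.2% were called higher and 28.6% lower with obstruction, and 0.867% and 0.942% with zalfermin. Of 20 other AP-1 and basic leucine zipper partners, 13 were called higher and 2 lower with obstruction, with a median log2 fold change of 0.72 (0.09 over all tested genes). Maff, a small MAF protein, rose from 1.99 ± 0.547 CPM (SD, n = 4) to 26.5 ± 4.14 CPM (n = 7), and Cebpd from 4.42 ± 1.15 to 38.9 ± 12.7 CPM. Maf and Mafg were the genes called lower, with Maf at 178 ± 29.2 CPM against 355 ± 23.9 CPM in healthy kidney and Mafg with a log2 fold change of -0.30. With zalfermin 0 were called higher and 1 lower. At an unadjusted p under 0.05, 2 were higher (7.94% of all tested genes were) and 8 lower. The share of all tested genes lower at that threshold is not given here, so the 8 cannot be judged against it. DESeq2 and limma voom also called 0 higher, and 4 and 3 lower. Over all genes DESeq2 called 342 lower and limma voom 646, beside 151 by edgeR. Nfil3, a leucine zipper repressor, was the gene of this list that edgeR called lower. It was at 14.1 ± 3.39 CPM (n = 8) against 23.3 ± 2.74 CPM with vehicle (log2 fold change -0.72, adjusted p = 0.0170). Atf4, the effector of the integrated stress response and a known activator of Atf3, had 99.0 ± 10.8 CPM against 133 ± 30.2 CPM (log2 fold change -0.43, adjusted p = 0.0551), and was called lower with RLE or upper-quartile factors, by DESeq2, without a filter on low counts and without vehicle replicate 1, 3, 5 or 6. It was not called by limma voom (-0.27, adjusted p = 0.0849), with a filter of 1 CPM in 4 libraries, in the fit of 2 groups or without any other library.

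Of 40 other immediate early genes 38 were tested (Egr4 and Npas4 had too few reads). With obstruction 33 were called higher and 1 lower, with a median of 1.55. Rhob, a small GTPase, rose from 72.5 ± 8.20 to 345 ± 44.7 CPM, and Ier5 from 18.6 ± 1.08 to 71.9 ± 6.94 CPM. Dusp1, a MAP kinase phosphatase that is itself an immediate early gene, fell from 50.9 ± 14.05 to 33.1 ± 4.06 CPM (a log2 fold change of -0.62, adjusted p = 0.00569), but this call was absent when healthy replicate 4 was left out (-0.42, adjusted p = 0.0616). With zalfermin 2 were called higher and 2 lower. Tnfaip3, an inhibitor of NF-kappaB signalling, went from 42.0 ± 8.86 to 64.4 ± 9.50 CPM, a log2 fold change of 0.62 (adjusted p = 0.00848), and Klf4 from 29.5 ± 2.98 to 42.4 ± 8.48 CPM (0.52, adjusted p = 0.0163). Ier5 fell to 56.5 ± 5.02 CPM (-0.35, adjusted p = 0.0112), and Nr4a3, a nuclear receptor, from 3.45 ± 1.09 to 1.79 ± 0.665 CPM (-0.94, adjusted p = 0.0381). The call on Nr4a3 was lost on leaving out any of 11 of the 15 libraries (vehicle replicate 1, 2, 5 or 7 or any zalfermin replicate but 6), with values of -0.99 to -0.82.

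Of 24 MAP kinases and factors upstream of Fos and Jun, 11 were called higher and 8 lower with obstruction. These shares are near those of all tested genes, and the median of 0.04 was below the median over all of them. Map3k1, a kinase upstream of JNK, rose from 60.4 ± 13.03 to 174 ± 29.0 CPM, and Rps6ka1, which encodes the ERK-activated kinase RSK1, from 24.9 ± 2.61 to 47.3 ± 5.98 CPM. With zalfermin 1 was called lower and 0 higher, with 3 higher at an unadjusted p under 0.05 and 0 called higher by DESeq2 or limma voom. Srf, which encodes serum response factor, was at 24.8 ± 2.47 CPM with zalfermin and 33.2 ± 4.79 CPM with vehicle (log2 fold change -0.42, adjusted p = 0.0154).

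Among 15 brakes on the pathway, phosphatases, Sprouty and SPRED proteins and corepressors, 12 were called higher with obstruction and 0 lower, with a median of 0.68. None was lower at an unadjusted p under 0.05 by edgeR, and DESeq2 and limma voom called 0 lower. Dusp8 rose from 3.54 ± 0.527 to 27.5 ± 7.26 CPM and Spred3 from 2.17 ± 0.387 to 10.1 ± 1.64 CPM. With zalfermin 1 was called lower and 0 higher (0 at an unadjusted p under 0.05 and 0 by DESeq2 and limma voom). This was Nab2, a corepressor of Egr1 that Egr1 itself induces, at 26.8 ± 3.14 against 37.3 ± 7.44 CPM (log2 fold change -0.48, adjusted p = 0.0240). It was no longer called when vehicle replicate 2 or 7 was left out, or zalfermin replicate 2, 4 or 5 (log2 fold change -0.47 to -0.44, adjusted p up to 0.0591). Dusp5, a nuclear ERK phosphatase, had 8.30 ± 2.91 against 10.5 ± 2.01 CPM and was not called (adjusted p = 0.403).

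Of 24 genes known to carry AP-1 or EGR1 sites or to respond to these factors 23 were tested (Mmp10 had too few reads), and 18 were called higher and 3 lower with obstruction. The median was 2.90, and it was unchanged with Il6, which had 0 reads in healthy libraries, set at the bound that 3 counts over the group allow. Cd44, a hyaluronan receptor, rose from 1.91 ± 0.928 to 135 ± 27.2 CPM and Vim, which encodes vimentin, from 45.4 ± 6.16 to 258 ± 28.9 CPM. Vegfa (log2 fold change -1.16), Nqo1 (-1.18) and Ccnd1 (-0.37) were the genes called lower, the call on Ccnd1 being lost without healthy replicate 2 or 3 (adjusted p = 0.0622 and 0.0588). With zalfermin 0 were called in either direction by edgeR. At an unadjusted p under 0.05, 2 were higher (7.94% of all tested genes were) and 4 lower. The share of all tested genes lower at that threshold is not given here, so the 4 cannot be judged against it. DESeq2 called 0, and limma voom called 0 higher and 1 lower, where it called 646 of all genes lower. Hbegf had 35.5 ± 6.92 against 46.4 ± 9.69 CPM (log2 fold change -0.39, adjusted p = 0.131), and Vim 220 ± 27.0 against 258 ± 28.9 CPM (-0.23, adjusted p = 0.205). Hbegf was the gene that limma voom called.

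Total counts per library ran from 12209122 to 14844103. Vehicle replicate 6 stood apart with the fewest genes detected (19788) and 1.10% of counts from mitochondrial genes, and it held the lowest Fos, Fosl2 and Atf3 level of its group. The mitochondrial share was 8.77% to 10.2% in healthy libraries and 1.10% to 4.25% in all obstructed ones, and TMM factors were 0.751 to 0.843 and 1.02 to 1.11. Both separate the groups completely, as the rise of 9 members does, and their part in that rise was not tested. Without vehicle replicate 6 the log2 fold change of obstruction was 1.69 for Fos. For zalfermin against vehicle, leaving out this library gave -1.97 for Fosb (adjusted p = 0.0197) and -0.53 for Atf3 (adjusted p = 0.0155) by edgeR. Over all genes 242 were then called higher and 275 lower with zalfermin, beside 139 and 151 with all libraries. The proximal tubule, distal tubule, collecting duct, podocyte and endothelial markers were detected in every group. Of the 5 skeletal muscle markers Myh4 was at 0 in all 3 groups, and 1 of the 2 tested was called higher with obstruction. Summed adipocyte markers ran from 0.267 to 16.8 CPM in healthy, 1.27 to 33.5 CPM in vehicle and 0.836 to 143 CPM in zalfermin libraries. All 4 tested adipocyte markers were called higher with zalfermin against healthy, but 0 were called with obstruction and 0 with zalfermin against vehicle. Of the 5 adrenal cortex markers 2 were tested, and 1 was called higher with obstruction. The part of tissue around the kidney was not tested.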

How the data were processed

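The authors deposited 1 table of raw read counts per gene, with no normalization, for 19 mouse kidney libraries. Alignment was to GRCm38, with STAR 2.7.0f, per the submitters' processing notes, and libraries were made with a directional kit, per the labels' protocols. The sources used here do not give the counting program, its strand setting or the annotation. Gene positions and exon lengths are from GENCODE M21 (GRCm38), and upstream sequences from RefSeq (GRCm38.p6).

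Genes were kept with filterByExpr of edgeR 4.0.16 (minimum count 10, minimum total count 15), scaled with TMM, and fitted in 1 quasi-likelihood model of 3 groups over 19 libraries in R 4.3.3. Adjusted p is Benjamini-Hochberg over the 16026 tested genes, with 0.05 as the threshold. RPKM is CPM per kilobase of all exons. DESeq2 1.42.0 and limma 3.58.1 (voom with quality weights), other scalings and filters, a fit of 2 groups and leaving out each library were the alternatives. The fits were tested on simulated data with the same setting for the spread of every gene and far fewer changed genes than obstruction gave. That test does not cover genes as variable as Fos and Fosb. Replicates of a group differed beyond counting noise (the lowest chi-square per degree of freedom was 5.89), so no library was counted as a repeat of another. Figures were drawn with Python 3.11.15. The replicate numbers follow the order of the samples.

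The members and gene lists were chosen with earlier results of these data known. All members were named. From each list the text names the 2 genes with the smallest p in each of the obstruction and zalfermin comparisons, and the called genes where 5 or fewer were called in a direction. From these, 1 gene is not reported here. The 3 genes most alike in pattern were named for Fos, Fosl1 and Jund. Older symbols matched current ones for 3 listed genes (Ccn1, Mrtfa and Mrtfb).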

Additional observations from a re-analysis of the deposited data

Results flagged for a closer look

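Of 30 groups of libraries examined (10 members in 3 groups), 3 held a library set apart from the rest of its group, where chance gives about 1 in 20. Vehicle replicate 1 had 35.8 CPM of Fos, the next library having 19.99 CPM. The same library had 23.8 CPM of Fosb, the next having 8.02 CPM. Healthy replicate 4 had 0.0982 CPM of Fosl1, which is 1 read where the other 3 healthy libraries had 0. A single read in 4 libraries is set apart by construction, so this result says nothing beyond that read.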

How the results depend on the processing

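All 10 members were called higher in both obstructed groups against healthy under every alternative run, leaving out each library included. For zalfermin against vehicle the count of 2 members called lower was 0 in a fit of those 2 groups alone and ranged from 0 to 2 on leaving out 1 library, while the other scalings, filters and tools gave 2. Members not called changed sign in some settings: Junb was -0.018 with upper-quartile factors, and limma voom gave 0.066 for Fosl1, 0.11 for Jun and 0.015 for Jund. On leaving out 1 library the log2 fold change ranged from -0.29 to 0.29 for Fos, -0.22 to 0.072 for Egr1, -0.11 to 0.037 for Jun, -0.045 to 0.086 for Junb and -0.036 to 0.16 for Ier3. With the longest transcript as length, mean shares in vehicle libraries were 61.3% for Fosl2, 32.5% for Junb and 44.9% for Jund, and in zalfermin libraries 33.9% for Junb and 43.3% for Jund. Without TMM factors 1 vehicle pair and 2 zalfermin pairs passed the adjusted correlation test, and on leaving out 1 library 0 to 1 did in each group. Over all genes zalfermin against vehicle gave 139 higher and 151 lower by edgeR, 260 and 342 by DESeq2, 502 and 646 by limma voom, and 71 to 242 higher and 73 to 275 lower on leaving out 1 library. For obstruction the median of all genes was 0.09 on TMM factors, 0.01 on RLE and 0.14 on upper-quartile factors. Where a cause is not plain from the setting, the cause was not tested. Depth limits Fosl1 and Fosb in healthy libraries, with 1 and 7 reads in all. No paired analysis was possible because the labels give no replicate numbers.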
